A study of Homo sapiens with 2 samples.

Results

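The genes described here are those of tumour necrosis factor (TNF) signalling, the NF-kappaB transcription factors and apoptosis. They were picked by a rule on symbols in the platform's probe annotation, chosen with earlier results of these data known. The rule took symbols that start with TNFRSF, TNFSF, TNFAIP, NFKB, REL, BIRC, BCL2, BCL3, IKBK or TNIP, or with TRAF or CASP followed by a digit. It also took CFLAR, MCL1, PMAIP1, BAD, TRADD, FADD and RIPK1, with antisense genes left out. This gave 45 of 13763 named genes. Affymetrix whole-transcript arrays were used to measure total RNA of S2-013, an established human line of pancreatic cancer, to look for genes under the control of signalling through the homeobox factor HOXB7 and the kinase MEK. All cells carried a knockdown of HOXB7 and a plasmid that restored it. 1 array held cells also given a MEK inhibitor and 1 array held cells without it. No source used here gives the inhibitor's name, dose or exposure time, and no array of parental cells was analysed here.

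TNF and its relatives bind trimeric receptors on the cell surface. TRADD, FADD and the TRAF proteins dock on the receptors' tails, and from there the signal can take 2 routes. In one, the IKK complex releases NF-kappaB dimers, built from NFKB1, NFKB2, RELA, REL and RELB, which enter the nucleus and switch on inflammatory and survival genes, several of their own inhibitors and adaptors among them. In the other, caspase-8 starts apoptosis, which CFLAR and the inhibitor of apoptosis proteins (IAPs) hold back and which BCL2 family proteins control at the mitochondrion. In epithelial cancers the ERK pathway below MEK is known to touch this machinery at several points, for example through the stability of MCL1 and the phosphorylation of BAD.

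Values are log2 expression values as deposited, and a difference is always the value with the inhibitor minus the value without it. Since each condition has 1 array, no difference below has a replicate error, a test or a p-value, and none shows what would recur in another culture. The only measurable error was that between probe sets. In 161 genes with 2 probe sets above the detection floor, the differences of the pair disagreed by a median of 0.13 and by less than 0.55 in 95% of genes. A further 29 genes, whose 2 probe sets held identical values, were left out of this. A gene was counted when the higher of its values reached a floor of 4.78, the median over named genes, which 31 of the 45 members and 7164 genes in all did. A level near this floor may be background, since no detection calls were used. Of 8 named epithelial markers, all were above the floor, and so were 3 of 7 leukocyte, 1 of 4 endothelial and 0 of 2 fibroblast markers. The log2 of the summed leukocyte marker values was 8.95 with the inhibitor and 9.30 without it. Most of this sum came from CD68 (8.53 and 8.95), while the other named leukocyte markers read near or below the floor. The part of leukocyte markers in the results was not tested, and the T cell marker CD2 read 4.20 in both arrays. All 11 named ERK response genes read lower with the inhibitor, as did 3303 of all 7164 genes above the floor. Their median difference was -1.55, and EGR1, SPRY4, DUSP4 and ETV4 had the largest sizes, from 3.36-fold to 7.67-fold. This list was chosen with earlier results of these data known, so it is no independent check of the labelled treatment.

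The median difference over the members was 0.16, and their median size, sign aside, was 0.31 against 0.19 for all genes above the floor. The 6 genes of TNF receptor adaptors and TRAF-binding proteins above the floor and the 5 NF-kappaB subunit genes all read higher. Of all genes above the floor 53.9% did. The median differences of these groups were 0.48 and 0.34, against 0.03 for all genes above the floor. The adaptor TRAF1 was the only member past 2-fold, at 2.99-fold higher, and it reached the floor only in the array with the inhibitor. At the mitochondrion the prosurvival gene MCL1 and the BH3-only gene PMAIP1, whose proteins bind each other, were the lowest members, while the BH3-only gene BAD was among the highest.

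Of the 31 members that reached the floor, 4 had a value at least 1.5-fold higher with the inhibitor, as had 4.62% of all genes, and 2 a value at least 1.5-fold lower, as had 3.60%. These counts are 12.9% and 6.45% of the members. 1 member was at least 2-fold higher, where 0.628% of all genes were, and none was 2-fold lower, where 1.05% were. That member, TRAF1, reached the floor only through the array with the inhibitor, where it is higher. Of the 30 members above the floor in both arrays, none was 2-fold higher. Among these 30, TRADD, BAD and NFKB2 passed 1.5-fold upwards, as did 3.62% of 6850 genes above the floor without the inhibitor. In direction alone, 18 of 31 members (58.1%) read above 0, against 53.9% of all genes, a share near the background. Of the 31, 25 had a difference smaller than the 0.55 within which probe sets of a gene disagree, so the direction of each single one of these is not settled. The 0.55 holds no error between cultures or arrays, so a larger difference is not settled by it either. The members past 1.5-fold were TRAF1, TRADD, BAD and NFKB2 upwards and PMAIP1 and MCL1 downwards. Their threshold is 0.58 on the log2 scale. NFKB2 (0.60), BAD and TRADD (both 0.62) lay just inside it and RELB (0.54) and TRAF3IP1 (0.53) just outside, and with a loess trend subtracted only TRAF1 stayed past it upwards.

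**Figure D1:**
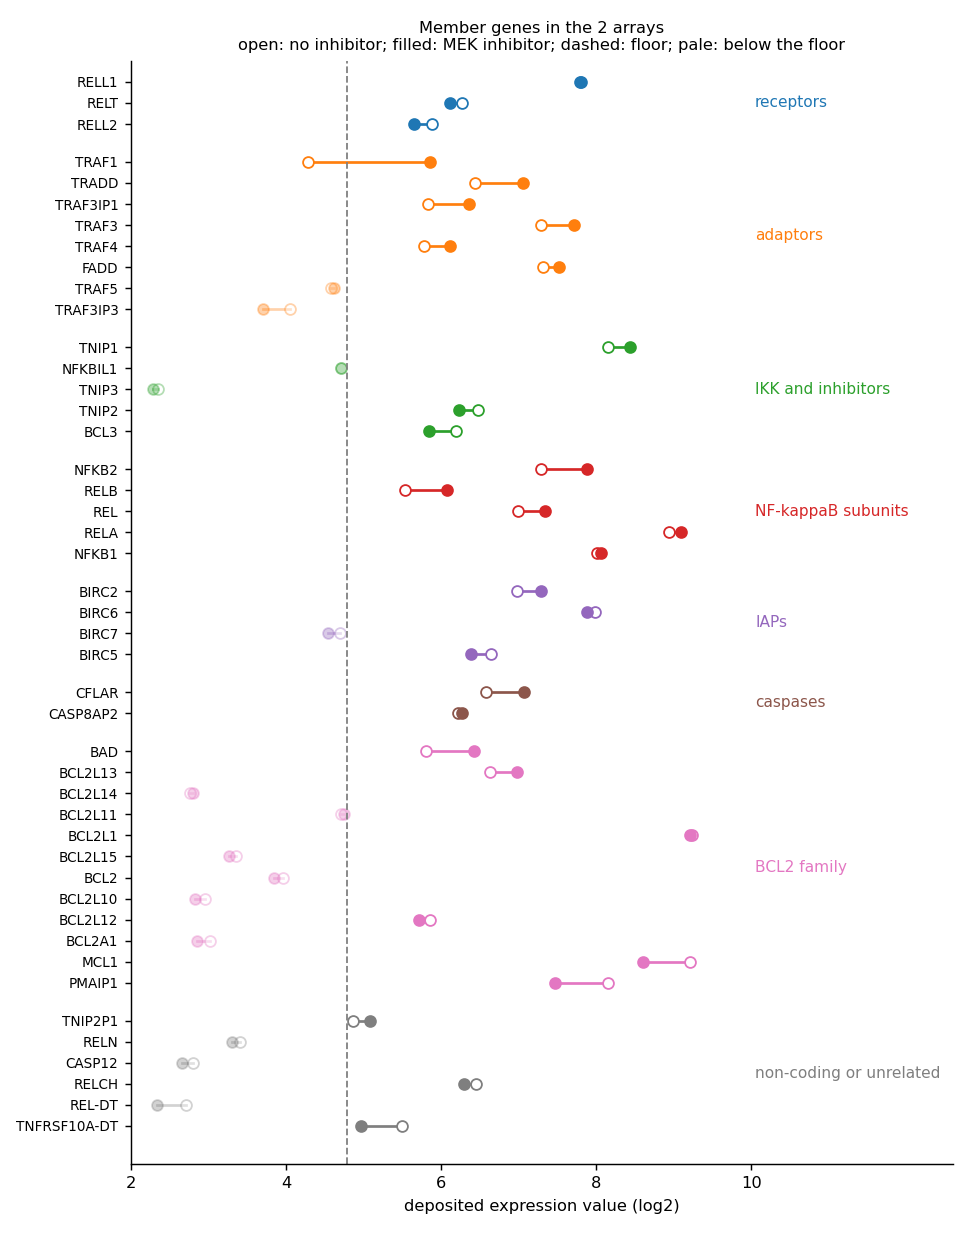
Deposited log2 value of each of the 45 members (horizontal axis) in the array without the inhibitor (open circle) and with it (filled circle), grouped and coloured by role; the dashed line is the floor of 4.78, and pale genes lie below it in both arrays. The filled circle lies to the right for all 6 adaptors and 5 subunits above the floor, farthest for TRAF1, and to the left for MCL1 and PMAIP1.

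Among receptors, the members named were the small RELT family. The TNFSF ligands, TNFRSF receptors and TNFAIP genes are not analysed here, since none was named in the annotation used. RELT is a TNF receptor superfamily member, and RELL1 and RELL2 are its membrane-bound relatives. RELT read 6.11 with the inhibitor and 6.27 without it, RELL2 5.65 and 5.88, and RELL1 7.79 and 7.80. All 3 differences (-0.16, -0.24 and -0.01) were small, and RELT had no settled direction, since its second probe set read 0.32 and the average of both 0.08. Among receptors and ligands with other kinds of symbol, the ectodysplasin receptor EDAR read 6.53 with and 7.39 without the inhibitor, a difference of -0.87. The receptors CD27 (4.99 and 4.54) and NGFR (4.83 and 4.47) went the other way, by 0.45 and 0.36, and both were below the floor without the inhibitor. The ligand gene TNF itself read 5.31 and 5.01.

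The adaptors were the group that stood highest. TRAF1, a TRAF without a RING domain that joins TRAF2 complexes and is a known NF-kappaB target, read 5.86 with the inhibitor and 4.28 without it (probe set 17097941). The difference of 1.58 ranked 7 from the top of 7164 genes. The value without the inhibitor lies below the floor, so the fold starts from a dim signal, and TRAF1 is the only member above the floor in just 1 array. TRADD, the first adaptor on TNF receptor 1, read 7.06 and 6.43, a difference of 0.62 (1.54-fold). TRAF3IP1, a protein of intraflagellar transport that also binds TRAF3, read 6.37 and 5.83, a difference of 0.53. These 3 had the largest differences of the group.

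TRAF3, which holds the kinase NIK in check and so restrains the non-canonical NF-kappaB route, read 7.71 with and 7.29 without the inhibitor, a difference of 0.43. TRAF4, a TRAF found mainly in epithelia, read 6.11 and 5.78, a difference of 0.33. FADD, the bridge between death receptors and caspase-8, had the smallest difference of the adaptors above the floor, 0.21 (7.52 and 7.31), and its second probe set read 0.47. All 6 kept their direction with the median difference or the loess trend subtracted and with probe sets averaged. Only TRAF1 and TRADD exceeded the disagreement between probe sets. TRAF5 and TRAF3IP3 lay below the floor in both arrays. Without TRAF1 the group's median was 0.43.

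The 5 NF-kappaB subunits differed among themselves. NFKB2, the p100 precursor of p52, read 7.88 with the inhibitor and 7.29 without it (probe set 16708623), a difference of 0.60 or 1.51-fold. RELB, the partner of p52 in the non-canonical dimer, read 6.08 and 5.54 (probe set 16863168), a difference of 0.54 or 1.45-fold. REL, the c-Rel subunit, read 7.34 and 7.00, a difference of 0.34. The other two subunits barely differed between the arrays. RELA, the p65 transactivating subunit of the canonical dimer, read 9.09 and 8.94, a difference of 0.16. NFKB1, the p105 precursor of its partner p50, read 8.07 and 8.01, a difference of 0.05. The pair of the non-canonical dimer had larger differences than the pair of the canonical one (0.54 and 0.60 against 0.05 and 0.16). REL, at 0.34, lay between these pairs. The comparison of pairs was not planned, and with 1 array per condition the gap was not tested. RELB's difference lies within the disagreement between probe sets. With the median difference or the loess trend subtracted all 5 remained above 0, NFKB1 by 0.03 in each case.

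The IkappaB-related and TNIP genes did not share a direction. BCL3, an atypical IkappaB protein that works in the nucleus with p50 and p52, read 5.84 with and 6.20 without the inhibitor, a difference of -0.35. TNIP1 and TNIP2, which bind ubiquitin chains and the deubiquitinase A20 and dampen NF-kappaB, went apart: TNIP1 read 8.43 and 8.15, a difference of 0.28, and TNIP2 6.23 and 6.48, a difference of -0.25. The median of these 3 was -0.25, and it turned to 0.02 without BCL3. TNIP3 and NFKBIL1 lay below the floor. Genes of the IKBK and NFKBI series are not analysed here. The one IKK subunit described is IKK alpha, whose gene CHUK is on the list of other signalling genes and read 6.84 and 6.95.

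Since several genes of this machinery are known to be controlled by NF-kappaB itself, their promoters were searched for its motif, and the matches are shown. The window was the 250 bases before each start site in RefSeq (GRCh38.p14), and 24 of the 31 members above the floor had at least 1 window, 43 windows in all. Both strands were searched for 4 motifs: the NF-kappaB consensus (a 10-base motif with degenerate positions), the ETS core CCGGAA, the AP-1 site TGANTCA and the SRF CArG box. Overlapping matches on either strand were joined. A match describes letters only, not binding. The NF-kappaB consensus was found in 7 of 24 members (29.2%), against 8.07% of 5847 named genes above the floor with a window. The other motifs were found in 41.7% (ETS, against 30.5%), 8.33% (AP-1, against 5.61%) and 4.17% (CArG box, against 1.45%), the last being 1 gene, BCL2L12. Genes with several start sites have more windows to match in, and the members were not matched for this.

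The NF-kappaB consensus matches of the subunit genes, of the adaptor TRAF3, the inhibitor TNIP1 and the caspase-8 regulator CFLAR are printed below, 5′ to 3′ on the gene's strand, with up to 20 bases on each side. Capitals mark the match, and the distance is that of its nearest base from the start site.
NFKB2, middle start, chr10:102394451-102394501 (+), 97 bases: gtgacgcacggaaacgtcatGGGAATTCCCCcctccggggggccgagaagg
NFKB2, same middle start, chr10:102394480-102394529 (+), 69 bases: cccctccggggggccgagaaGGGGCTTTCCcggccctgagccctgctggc
NFKB2, downstream start, chr10:102395509-102395558 (+), 167 bases: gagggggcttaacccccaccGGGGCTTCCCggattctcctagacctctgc
NFKB2, same downstream start, chr10:102395664-102395704 (+), 12 bases: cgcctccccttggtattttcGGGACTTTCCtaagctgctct
REL, chr2:60881507-60881557 (+), 37 bases: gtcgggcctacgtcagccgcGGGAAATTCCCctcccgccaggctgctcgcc
NFKB1, chr4:102501290-102501339 (+), 40 bases: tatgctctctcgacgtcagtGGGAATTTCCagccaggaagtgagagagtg
TRAF3, chr14:102777396-102777445 (+), 24 bases: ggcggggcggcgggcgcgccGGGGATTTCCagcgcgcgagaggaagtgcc
TNIP1, chr5:151081047-151081096 (-), 33 bases: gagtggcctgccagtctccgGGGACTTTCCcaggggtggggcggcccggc
CFLAR, chr2:201118599-201118648 (+), 88 bases: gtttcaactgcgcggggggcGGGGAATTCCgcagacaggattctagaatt

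NFKB2 thus had matches before 2 of its 3 start sites, and the match near its downstream start holds the same 10 letters as that of TNIP1. The seventh gene with a match was BIRC6. The difference was above 0 in 6 of these 7 genes, with a median of 0.34 and a range from -0.10 (BIRC6) to 0.60 (NFKB2). It was above 0 in 9 of the 17 members whose windows held no match, with a median of 0.06. Of all genes above the floor 53.9% read above 0. The 7 genes include the subunit genes NFKB1, NFKB2 and REL, already described as higher, and a link between match and difference was not tested. The overlap between these sets was wide, and NFKB1, with a match, read 0.05, while TRAF1, with 3 windows and no match in them, read 1.58. The 7 members above the floor without a window were BIRC5, MCL1, RELB, RELL1, TNFRSF10A-DT, TNIP2P1 and TRADD. Of these, 3 read above 0, and their median was -0.0050.

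Genes that hold back caspases split. CFLAR, the catalytically dead relative of caspase-8 that blocks its activation and a known NF-kappaB target, read 7.06 with and 6.58 without the inhibitor, a difference of 0.49. BIRC2 (cIAP1), the ubiquitin ligase that works with TRAF2 and TRAF3, read 7.29 and 6.98, a difference of 0.31. BIRC6, a very large ubiquitin-conjugating IAP, read 7.88 and 7.98, a difference of -0.10. CFLAR had the largest of these differences, still below the 0.55 of probe set disagreement. BIRC5 (survivin), which serves the chromosomal passenger complex in mitosis as well as survival, read 6.38 and 6.65, a difference of -0.27. CASP8AP2, a nuclear protein named for binding caspase-8, read 6.27 and 6.21. BIRC7 lay below the floor. The caspases themselves are not analysed here, apart from the pseudogene CASP12, which lay below the floor too.

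In the BCL2 family the BH3-only genes BAD and PMAIP1 went apart, and neither prosurvival gene above the floor, MCL1 or BCL2L1, read higher. PMAIP1 (NOXA), a BH3-only protein that binds MCL1 and drives its degradation, read 7.47 with the inhibitor and 8.15 without it (probe set 16852683). This difference of -0.68, 1.60-fold lower, was the lowest of all members and ranked 188 from the bottom of 7164 genes. MCL1, the short-lived prosurvival protein that PMAIP1 binds, read 8.60 and 9.21 (probe set 16692775), a difference of -0.61 or 1.53-fold lower. Both sizes were slightly above the probe set disagreement of 0.55.

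BAD, a BH3-only protein that binds BCL2L1 and BCL2 and is kept inactive by phosphorylation, read 6.42 with the inhibitor and 5.81 without it (probe set 16739872), a difference of 0.62 or 1.53-fold higher. BCL2L13, a BCL2-like protein of the outer mitochondrial membrane with a role in mitophagy, read 6.98 and 6.63, a difference of 0.35. BCL2L1, which encodes BCL-XL, the main other prosurvival member above the floor, was level at 9.21 and 9.24. BCL2L12 read 5.71 and 5.85, a difference of -0.14. The 6 members above the floor had a median of -0.09, with 2 higher and 4 lower. BCL2L11 (BIM), the BH3-only protein whose degradation follows phosphorylation by ERK, lay just below the floor, at 4.75 and 4.71, so nothing can be said of its transcript here. BCL2, BCL2A1, BCL2L10, BCL2L14 and BCL2L15 also lay below it.

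**Figure D2:**
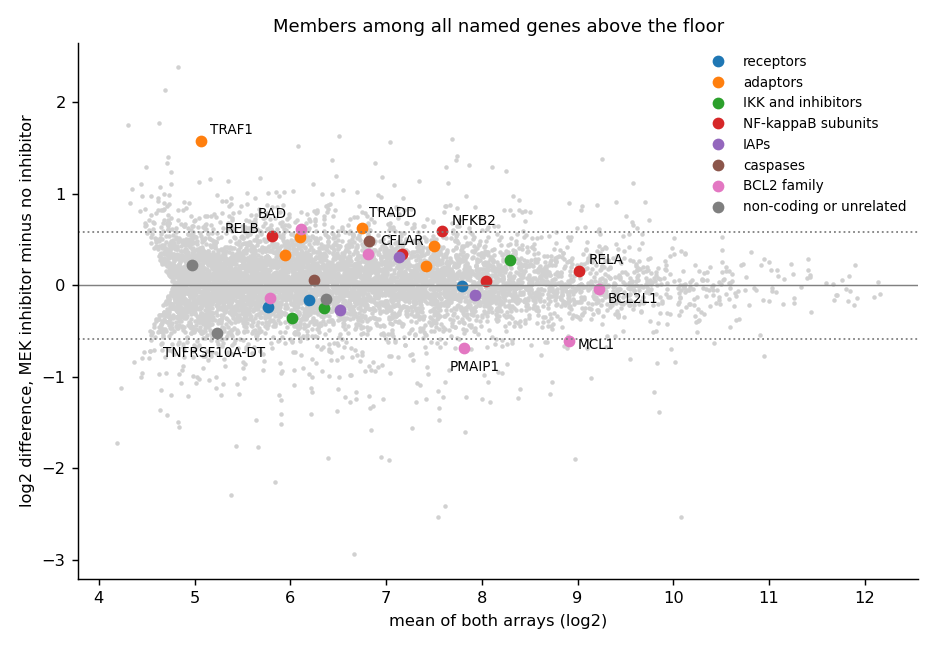
Log2 difference with minus without the inhibitor (vertical axis), against the mean of both arrays (horizontal axis, log2) for 7164 named genes above the floor (grey) and the 31 members (coloured by role); dotted lines mark 1.5-fold. TRAF1 is the only member far from the grey cloud's bulk and is a dim gene, while MCL1 and PMAIP1 lie just below the lower dotted line at brighter levels.

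Symbols that met the rule by prefix but are non-coding or belong to other processes were kept in the counts. TNFRSF10A-DT, a divergent transcript beside a death receptor gene, read 4.97 with and 5.49 without the inhibitor, a difference of -0.52, but its second probe set read 0.10. TNIP2P1, a transcribed pseudogene of TNIP2 whose probes may share sequence with the parent gene, read 5.09 and 4.86, and RELCH, an endosomal protein, 6.30 and 6.45. REL-DT, which shares its promoter region with REL, and the matrix protein gene RELN lay below the floor. Without these symbols, 28 members remained above the floor and their median was 0.18, with 17 of 28 (60.7%) above 0. Among all genes above the floor the median was 0.03 and 53.9% read above 0, a share near that of the members. The 14 members below the floor had differences from -0.37 to 0.04, none of 1.5-fold.

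Genes of the same pathways under other symbols were listed separately. Of 30 listed NF-kappaB target genes 21 were named and 14 reached the floor, and 12 of these 14 (85.7%) had a difference above 0, against 53.9% of all genes, with a median of 0.45 against 0.03. The value was at least 1.5-fold higher in 6, where 4.62% of all genes were, and at least 1.5-fold lower in 1, where 3.60% were. Of the 14, CCL20, IL32, SAA1 and CXCL11 were below the floor without the inhibitor, so they entered the count only through the array in which they are higher. The chemokine gene CCL20 read 6.01 with and 3.63 without the inhibitor, the cytokine gene IL32 5.51 and 3.73, and the chemokine gene CXCL10 7.33 and 5.69. The lipocalin gene LCN2, also an NF-kappaB target, went the other way, with 6.49 and 8.05, a difference of -1.56. Among the 10 targets above the floor without the inhibitor, a set formed after the values were seen, 8 read higher, 3 of them by at least 1.5-fold, and 1 was lower by that much, with a median of 0.34. Of all 6850 genes chosen in that way, 51.7% read higher, with a median of 0.01; 3.62% passed 1.5-fold upwards and 3.77% downwards. Since this list was written with earlier results of these arrays known, its direction is no independent evidence.

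Of 44 listed signalling genes 31 were named and 26 reached the floor. Of these, 17 (65.4%) read higher, against 53.9% of all genes. None was 1.5-fold higher, where 4.62% of all genes were, and EDAR alone was 1.5-fold lower, where 3.60% were. The median was 0.10, against 0.03 for all genes above the floor. The deubiquitinase gene CYLD had the largest difference after EDAR, 0.48 (6.78 with and 6.30 without the inhibitor). The TRAF-binding adaptor gene TANK (0.48) and the A20-binding protein gene TAX1BP1 (0.45) came next. All 3 differences lie below the 0.55 of probe set disagreement, so the direction of each is not settled. In the kinase relay, MAP3K14, which encodes NIK, had a difference of 0.12 and MAP3K7, which encodes TAK1, one of 0.08. TNF is on this list and on that of the targets.

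Of 37 listed apoptosis and necroptosis genes 27 were named and 24 reached the floor. Of these, 16 read higher (66.7%, against 53.9% of all genes) and 8 lower, with a median of 0.12 against 0.03. The value was at least 1.5-fold higher in 2, where 4.62% of all genes were, and 1.5-fold lower in 0, where 3.60% were. BNIP3, a mitophagy receptor also induced by hypoxia, was 2.58-fold higher (8.42 with and 7.05 without the inhibitor). In necroptosis the kinase gene RIPK3 read 5.03 and 4.42, a difference of 0.61, the RIPK3 activator gene ZBP1 5.05 and 4.50, and the executioner gene MLKL 8.62 and 9.17, a difference of -0.55. RIPK3 and ZBP1 were thus below the floor without the inhibitor and entered the count only through the array in which they are higher. The effectors of the mitochondrial pore barely differed between the arrays, with BAX at -0.03 and BAK1 at -0.14, as did the BH3-only gene BID at 0.01.

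**Figure D3:**
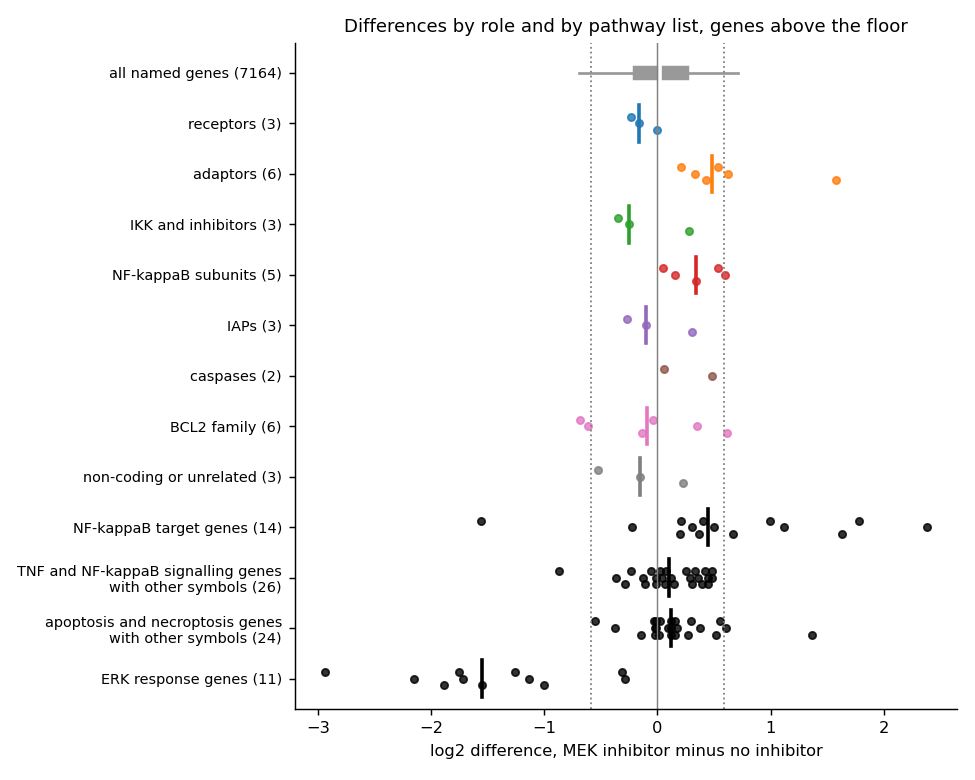
Log2 differences with minus without the inhibitor (horizontal axis), for members above the floor by role and for 4 pathway lists, with the number of genes in brackets; points are genes, vertical strokes medians of groups with 3 or more genes, and the grey bar shows all 7164 genes (thick, the middle 50%; thin, the middle 95%; white stroke, the median). All adaptors, NF-kappaB subunits and caspase-related genes lie to the right of 0 and the ERK response genes to the left, and the BCL2 family lies on both sides.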

How the data were processed

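The authors deposited 1 log2 value per probe set for each of 2 arrays; Affymetrix Expression Console 1.3 is named in the submitters' processing notes, and how it was set to correct background, summarise and normalize is not stated in them. The log2 scale was inferred from the values (1.16 to 13.4), and every fold assumes it. The array medians were 3.46 (inhibitor) and 3.49 (none), so values were used as deposited. Methods that bring quantiles together remove any difference in total RNA, and summaries of this kind compress large folds.

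Of 53617 probe sets 16098 had 1 gene symbol, 0 had several and 37519 are unnamed here. All 45 members matched the RefSeq gene table by Entrez identifier, with 0 symbols changed. Small RNA symbols (MIR, SCARNA) were left out. A gene with several probe sets was read from its brightest. Members were grouped by role; non-coding and unrelated symbols were set apart, and RELL1 and RELL2 put with RELT, after values were seen. The members and lists were chosen with earlier results of these data known. All members could be named, those past 1.5-fold and the 4 largest of each role in full, and the 4 largest of each list, with single defining genes (TNF, CD27, NGFR, CHUK, MAP3K14, MAP3K7, BAX, BAK1, BID) added after their values were seen. With 1 array per group no test was run, and the number of arrays limits the precision. Simulated shifts were compared with the 1.5-fold threshold, and the choice of the brightest probe set was checked on made-up values. The full calling script was not run on simulated data. Alternatives were 2 scalings, 2 floors, averaged probe sets, a 3-fold threshold and leaving out each group's largest difference. A median was taken as moved when it shifted by 0.13 or more. Python 3.11.15, numpy 2.4.6, pandas 2.3.3 and statsmodels 0.14.6 (loess, span 0.3) were used.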

Additional observations from a re-analysis of the deposited data

How the results depend on the processing

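No paired analysis was possible because only 1 array exists per condition, which also means that none could be left out. Of 67 alternative values of counts and medians, 57 stayed close to those reported and 10 moved; of 118 alternative values of named members 116 stayed close, and no member past 1.5-fold changed sign. With the loess trend subtracted, 1 member in place of 4 was at least 1.5-fold higher, since NFKB2, TRADD and BAD then fell just under the threshold. With the floor at the 75th percentile (6.45), 2 members were 1.5-fold higher and 0 were 2-fold higher, since TRAF1 and BAD were then too dim to count, and the BCL2 family median was -0.32. At 3-fold, 0 members were higher. Without a floor the median over all members was -0.0050 and that of the IkappaB-related and TNIP genes -0.066. Averaging probe sets gave a median of -0.0050 for the RELT family and turned RELT itself to 0.08, with TNFRSF10A-DT at -0.21. Without their largest difference, the median of the IkappaB-related and TNIP genes was 0.016 and that of non-coding or unrelated symbols 0.039. The adaptor and subunit medians stayed above 0 under every alternative run, from 0.38 to 0.48 and from 0.25 to 0.34. The set without non-coding or unrelated symbols was chosen after seeing the data and gave a median of 0.18. Dim signals limit TRAF1, CCL20, IL32, SAA1, CXCL11, CD27, NGFR, RIPK3 and ZBP1, whose values without the inhibitor lie below the floor.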
